A study of Caenorhabditis elegans with 2 samples.

Results

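The genes described here are the downstream members of tandem gene runs in Caenorhabditis elegans, the arrangement in which operons of this species are found. They were taken by distance alone. A protein-coding gene was counted as downstream when its annotated 5′ end lay 0 to 500 bp past the 3′ end of the nearest upstream coding gene on the same strand and no other coding gene, on either strand, lay in that gap. Of 19973 coding genes on the nuclear chromosomes, 3535 met this rule. They belonged to 2614 runs, of which 1976 had 2 genes, 449 had 3, 124 had 4 and 65 had 5 or more, up to 9. The 2614 first genes of these runs and 12864 isolated genes, with no coding gene of the same strand within 500 bp on either side, were the classes for comparison. The remaining 960 genes, mostly with overlapping annotations, were in no class. First genes were not checked for overlap, so some start inside another coding gene of their strand, and these were not counted apart. No operon annotation was used, so a tandem pair with a promoter of its own for each gene is counted like an operon.

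The binding data are chromatin immunoprecipitation and sequencing of OEF-1, a nuclear factor of the germline, in L4 hermaphrodites of strain OP383, whose genotype is unc-119(tm4063) III; wgIs383. The insertion gives the animals an additional oef-1 gene (F49E8.2) with a C-terminal GFP-FLAG tag beside the endogenous gene, and chromatin was precipitated with an antibody to GFP. Larvae were collected 52 h after bleached embryos had been held as starved L1 larvae. There was 1 group with 2 samples, biological replicates 3 and 4. Whole animals were used, so germline and soma cannot be told apart, and a site bound in fewer cells cannot be told apart from one bound less in each cell. An untagged strain was not analysed here.

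In an operon, a single promoter ahead of the first gene makes a transcript that carries several genes, and the transcript is cut into separate mRNAs. The cut downstream mRNAs receive a short spliced leader, SL2, by trans-splicing at the start of the gene, while first genes and genes outside operons often receive the leader SL1. Because the annotated 5′ end of a trans-spliced gene is often its splice acceptor and not the place where transcription began, a summit upstream of it may lie in or ahead of the transcript. Downstream genes of this species are often genes of housekeeping and germline function, and some have an internal promoter in the gap between the genes.

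The sequences at 4 of the 20 downstream genes with the strongest peaks show the 5′ end and the gap summit to which many results refer. They were picked because they hold both features marked below, an acceptor and a 6-mer, as 6 of the 20 did. Of the 20, 7 had this acceptor ending exactly at the annotated 5′ end, and 14 had a 6-mer near it. The 4 strongest had no acceptor so placed. At cmtr-1, the strongest, and at suf-1 and F26F2.7, such a hexamer ended within the first 20 bases of the annotated gene and was not counted. For tebp-2 (chrIV:5541587-5541646), C34C12.8 (chrIII:3460366-3460425), dnj-9 (chrII:4852016-4852075) and eelo-2 (chrIV:17250091-17250150), all on the plus strand, 40 bases before the annotated 5′ end and 20 from it on are given first. Capitals mark TTNCAG just before the 5′ end, the form of a worm splice acceptor.
tebp-2 5′ end: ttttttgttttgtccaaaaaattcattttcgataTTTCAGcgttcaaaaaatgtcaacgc
C34C12.8 5′ end: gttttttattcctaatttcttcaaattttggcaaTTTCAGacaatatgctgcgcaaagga
dnj-9 5′ end: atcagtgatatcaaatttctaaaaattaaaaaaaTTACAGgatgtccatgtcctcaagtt
eelo-2 5′ end: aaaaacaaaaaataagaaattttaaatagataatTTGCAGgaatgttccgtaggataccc

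The OEF-1 summits of these genes lay further upstream, in the gap. The 101 bases centred on each summit (chrIV:5541420-5541520, chrIII:3460220-3460320, chrII:4851765-4851865 and chrIV:17249843-17249943) are shown with the strand of the gene. Capitals mark the 6-mers GGCGCA and ACGCGC on either strand, which read TGCGCC and GCGCGT in reverse complement. These 6-mers had come from an earlier search of these same peaks, so their presence at summits is no independent result.
tebp-2 summit: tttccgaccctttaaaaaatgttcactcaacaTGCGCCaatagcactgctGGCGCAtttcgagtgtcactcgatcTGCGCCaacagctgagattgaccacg
C34C12.8 summit: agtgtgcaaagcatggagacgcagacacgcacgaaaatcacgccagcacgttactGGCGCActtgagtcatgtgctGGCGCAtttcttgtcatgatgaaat
dnj-9 summit: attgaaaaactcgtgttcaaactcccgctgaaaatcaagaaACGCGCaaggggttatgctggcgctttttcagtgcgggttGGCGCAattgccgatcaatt
eelo-2 summit: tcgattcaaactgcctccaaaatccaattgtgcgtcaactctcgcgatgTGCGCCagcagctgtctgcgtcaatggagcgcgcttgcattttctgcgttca

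Downstream genes of 3 short-gap pairs known as operons are shown for comparison. For rps-16 (chrV:15000522-15000581), gpd-3 (chrX:3113322-3113381) and deg-3 (chrV:11415140-11415199), all on the minus strand, the same 60 bases are shown, with the acceptor (TTNCAG, or AG alone) in capitals. Only rps-16 of these had a peak in the authors' optimal list, and its summit lay inside the gene.
rps-16 5′ end: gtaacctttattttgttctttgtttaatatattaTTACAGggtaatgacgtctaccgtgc
gpd-3 5′ end: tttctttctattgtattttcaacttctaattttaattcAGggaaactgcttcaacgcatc
deg-3 5′ end: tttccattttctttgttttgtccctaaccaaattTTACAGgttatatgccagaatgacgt

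A gene was called bound when a summit lay within 500 bp of its annotated 5′ end. The main list was the authors' optimal list of 1339 peaks, 1318 of them nuclear. Of the 3535 downstream genes, 195 were bound (5.52%, exact 95% interval 4.79 to 6.32), against 3.87% of all coding genes. First genes were bound in 183 of 2614 cases (7.0%, 6.05 to 8.05) and isolated genes in 354 of 12864 (2.75%, 2.48 to 3.05). The share of genes bound just behind another gene lay below that of first genes, with overlapping intervals, and above that of isolated genes. The intervals cover counting error only, since genes are not replicates, and no test was made between classes.

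Each replicate gave nearly the same shares from its own 1339 strongest peaks. In replicate 3, 5.55% of downstream, 6.58% of first and 2.74% of isolated genes were bound, beside 3.81% of all coding genes. In replicate 4 the shares were 6.14%, 6.12% and 2.85%, beside 3.95%. Downstream genes stood above isolated genes in both replicates, while their place relative to first genes was lower in replicate 3 and level in replicate 4. Bound in both of these lists were 3.48% of downstream, 4.09% of first and 1.93% of isolated genes, beside 2.54% of all.

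First genes often share their promoter region with a divergent neighbour, and downstream genes by their rule cannot have one in the gap. The 5′ end nearest to the summit was the gene's own at 194 of 195 bound downstream genes, at 121 of 183 first genes and at 268 of 354 isolated genes. Among genes with no other coding 5′ end within 1000 bp, 163 of 3017 downstream genes were bound (5.40%, 4.62 to 6.27), against 2.39% of all such genes. The first genes so restricted were bound in 54 of 1614 cases (3.35%, 2.52 to 4.34) and the isolated genes in 135 of 10113 (1.33%, 1.12 to 1.58). Under this restriction the downstream share lay above that of first genes. It did so in each replicate as well, with 5.27%, 2.85% and 1.36% of downstream, first and isolated genes in replicate 3, beside 2.33% of all such genes, and 6.00%, 2.97% and 1.43% in replicate 4, beside 2.54%.

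**Figure D1:**
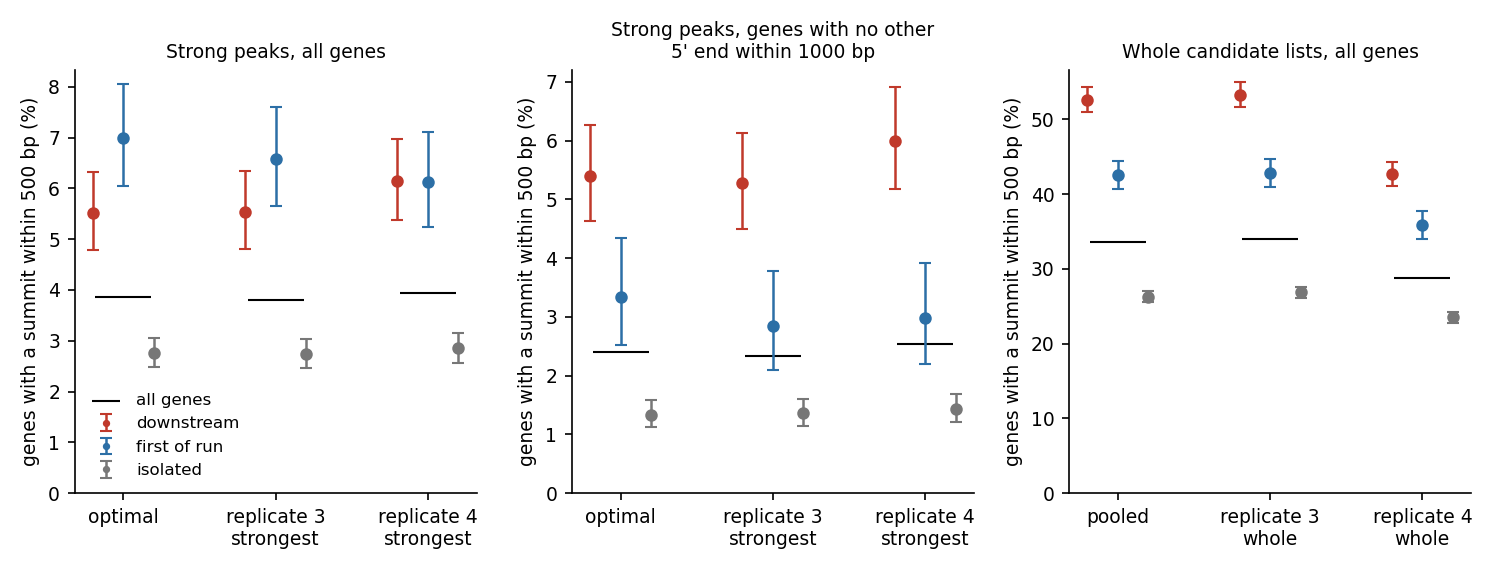
Share of genes with a summit within 500 bp of the 5′ end, in percent, for downstream genes (red), first genes (blue) and isolated genes (grey), with exact 95% intervals; black bars give all coding genes. In the strong lists the downstream share (5.52% in the optimal list) lies near the first-gene share (7.0%) and above the isolated share (2.75%); among genes with no other 5′ end within 1000 bp (middle) and in the whole candidate lists (right) the downstream share is the highest of the 3 classes.

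The weaker candidate peaks gathered at downstream genes more than at any other class. The pooled candidate list holds 30000 rows, weak peaks and background included, as the authors made it for input to their reproducibility filter. In it, 1861 of the 3535 downstream genes had a summit within 500 bp (52.6%, 51.0 to 54.3), against 42.6% of first genes, 26.3% of isolated genes and 33.6% of all coding genes. The whole list of replicate 3 gave 53.3%, 42.9% and 26.9%, beside 34.0% of all, and that of replicate 4 gave 42.7%, 35.9% and 23.5%, beside 28.9%. A summit in both whole lists was found at 34.3% of downstream, 26.6% of first and 13.7% of isolated genes, beside 19.4% of all. Among genes with no other 5′ end within 1000 bp, the pooled shares were 50.9%, 31.3% and 21.3%, beside 28.5%.

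The order of the classes turned below the strongest peaks. With pooled candidates of rank 1340 to 5000 by the authors' signal, 17.0% of downstream genes had a summit near the 5′ end, against 12.2% of first and 5.53% of isolated genes and 8.69% of all. For ranks 5001 to 10000 the shares were 13.8%, 9.91% and 5.5%, beside 7.66%, and for ranks 10001 to 20000 they were 18.3%, 13.4% and 8.99%, beside 11.4%. Ranks 20001 to 30000 gave 13.2%, 11.9% and 9.24%, beside 10.4%. In proportion, downstream and isolated genes lay closest in this weakest stratum.

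By the rule, the gene ahead ends within 500 bp of a downstream 5′ end. Summits near 3′ ends were counted as well. With the 1339 strongest pooled candidates, a summit within 500 bp of the 3′ end was found at 6.27% of first genes, whose 3′ end borders the gap, at 3.06% of downstream and at 2.90% of isolated genes, beside 3.37% of all. For ranks 1340 to 5000 the same shares were 17.1%, 12.1% and 7.84%, beside 9.98%. As no gap in a run is over 500 bp, a summit in the gap counts for both gene ends. The first-gene share is thus no separate result on 3′ ends.

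Where the summit lay differed with the gap between the genes, here split at 200 bp. The median gap of all members was 184 bp (quartiles 103 and 334). In the 1663 members with a gap over 200 bp, 109 were bound (6.55%, 5.41 to 7.85), and the summit nearest the 5′ end lay upstream in 98, at a median of -187 bp. In the 1872 members with a gap up to 200 bp, the spacing typical of operons, 86 were bound (4.59%, 3.69 to 5.64), and the summit lay at or past the 5′ end in 57, at a median of 48.5 bp inside the gene. Of the 109 summits at wide gaps, 96 (88.1%) lay in the gap itself, 11 in the downstream gene and 2 in the upstream gene. Of the 86 at short gaps, 21 (24.4%) lay in the gap, 57 (66.3%) in the downstream gene and 8 in the upstream gene. The median position was -251 bp at first genes and -195 bp at isolated genes, so the wide-gap members lay near these values and the short-gap members on the other side of the 5′ end. A gap up to 200 bp cannot hold a summit at -251 bp, so the share in the gap depends in part on gap length. How large that part is was not tested.

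The positions in the replicates taken alone lay close at wide gaps and less so at short gaps. At wide gaps the median was -187 bp in the strongest peaks of replicate 3 and -197 bp in those of replicate 4. At short gaps it was 62.5 bp and 34 bp, with 28.3% and 44.3% of the summits upstream of the 5′ end. For gaps of 101 to 200 bp the medians lay on either side of the 5′ end, at 49.5 bp in replicate 3 and -10 bp in replicate 4. In the whole pooled list the short-gap median was 54 bp over 1147 genes and the wide-gap median -91 bp over 714 genes.

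**Figure D2:**
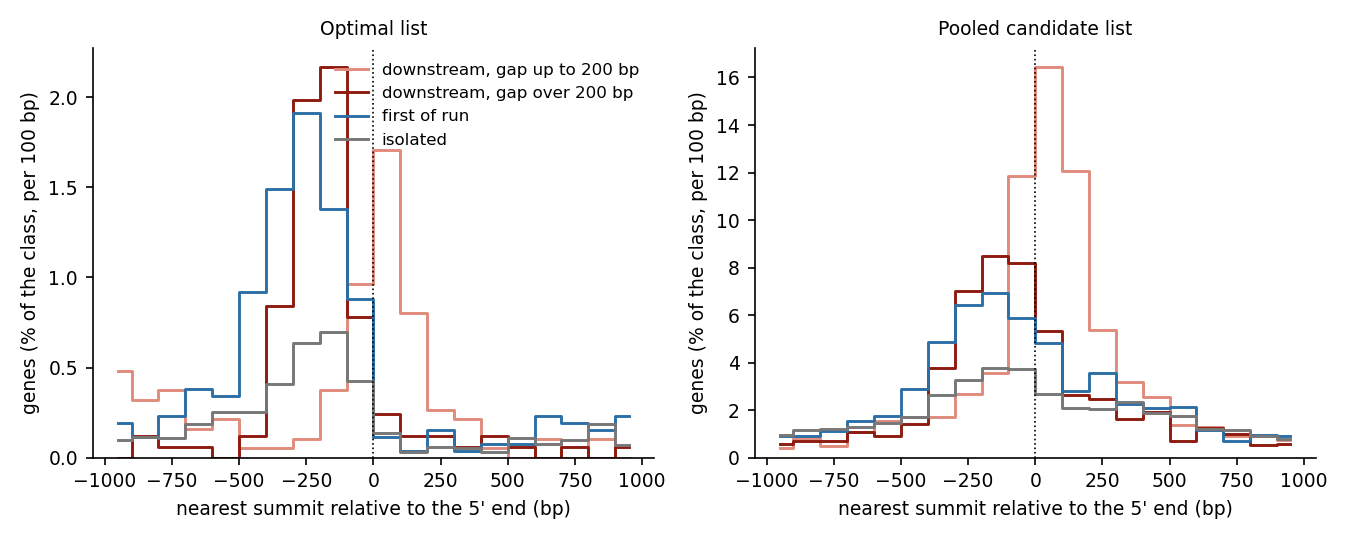
Position of the summit nearest the annotated 5′ end, in bins of 100 bp, as a percent of the genes of each class, for the optimal list (left) and the pooled candidate list (right). At wide gaps (dark red), first genes (blue) and isolated genes (grey) optimal summits lie mostly upstream; at short gaps (light red) they peak in the first 100 bp of the gene.

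The replicates held summits in the gap and summits inside the gene unequally. Of 117 members with the optimal summit in the gap, 101 (86.3%) were bound in the top list of replicate 3 and 94 (80.3%, 72.0 to 87.1) in that of replicate 4. For the 68 members with the summit inside the gene, 63 (92.6%, 83.7 to 97.6) were in the top list of replicate 3 and 39 (57.4%, 44.8 to 69.3) in that of replicate 4. Calls inside downstream genes were thus found less often in the top list of replicate 4 than calls in the gap. Over all 195 bound members, 174 were in the top list of replicate 3, 140 in that of replicate 4, 121 in both and 2 in neither, and all 195 were present in both whole lists. Recovery in a replicate is no independent check, because both replicates went into the optimal list.

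By 100 bp steps of the gap, the optimal share was 4.39% at 0 to 100 bp, 4.75% at 101 to 200, 6.18% at 201 to 300, 7.12% at 301 to 400 and 6.38% at 401 to 500. The pooled share was lower at wider gaps, with 63.2%, 59.9%, 44.7%, 42.2% and 41.6% over the same steps. The median position moved outward with the gap, from 82 bp inside the gene to -255 bp. In the optimal list no break was seen at the 500 bp limit of the rule. The bound member nearest to it, lem-2, had a gap of 490 bp, a signal of 85.5 and a summit at -303 bp, and the first bound gene beyond it, K05C4.7, had a gap of 507 bp, a signal of 85.9 and a summit at -235 bp. Of 459 genes with a gap over 500 and up to 600 bp, 5.23% were bound, and of 698 with a gap over 800 and up to 1000 bp, 1.43%.

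**Figure D3:**
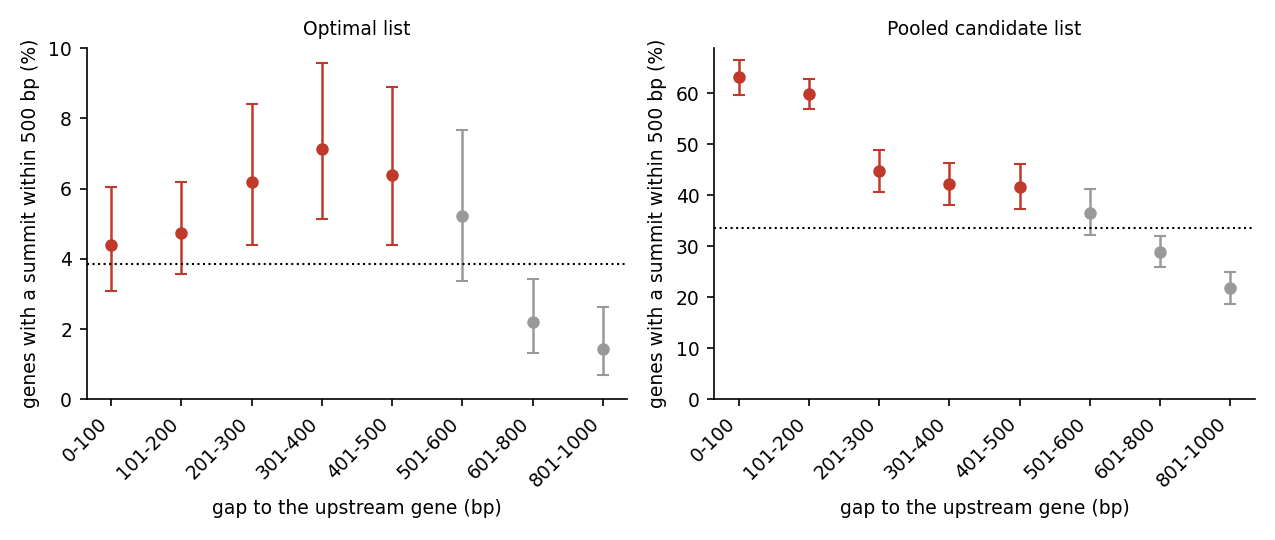
Share of genes with a summit within 500 bp of the 5′ end, in percent with exact 95% intervals, by gap to the upstream gene; red points are members, grey points lie outside the 500 bp limit and the dotted line is all coding genes. In the optimal list (left) the share is highest at 301 to 400 bp (7.12%); in the pooled list (right) it is highest at 0 to 100 bp (63.2%).

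At wide gaps, members with a splice acceptor exactly at the annotated 5′ end, a feature the rule did not use, were bound more often than all others. TTNCAG stood just before the 5′ end of 20.5% of downstream, 24.9% of first and 17.9% of isolated genes, and AG alone before 36.3%, 33.6% and 24.7%. Only an exact placement was counted. Genes annotated a few bases ahead of the acceptor, as cmtr-1 is, or past it are thus among those without. At gaps over 200 bp, 46 of 304 members with TTNCAG were bound (15.1%, 11.3 to 19.7), against 63 of 1359 without (4.64%, 3.58 to 5.89). The strongest peaks of replicate 3 gave 14.5% against 4.42%, and those of replicate 4 gave 15.5% against 4.71%. At gaps up to 200 bp, 15 of 421 members with TTNCAG were bound (3.56%, 2.01 to 5.81), against 71 of 1451 without (4.89%, 3.84 to 6.13). With AG alone as the feature the order at short gaps was the other way, 42 of 836 (5.02%, 3.64 to 6.73) against 44 of 1036 (4.25%, 3.10 to 5.66), so no clear order was seen there. Within the wide gaps the difference was smallest at 201 to 300 bp, 10.2% (5.2 to 17.5) with TTNCAG against 5.3% (3.49 to 7.66), with overlapping intervals. It was 18.37% against 4.74% at 301 to 400 bp and 17.35% against 3.71% at 401 to 500 bp. Among first genes the shares with and without TTNCAG were 11.5% and 5.5%, and among isolated genes 5.11% and 2.24%. Over all coding genes they were 6.91% and 3.15%, so a higher share with the acceptor was not particular to members.

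In the pooled list the acceptor went with a higher share at both spacings. At short gaps 77.7% of members with TTNCAG had a candidate summit, against 56.5% without, and at wide gaps 70.1% against 36.9%. Over all coding genes it was 48.2% against 30.2%. At gaps of 0 to 100 bp, 80.1% of the members with AG just before the 5′ end had one, against 51.4% of the others. How far an annotated acceptor marks genes that are transcribed in these animals was not tested.

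**Figure D4:**
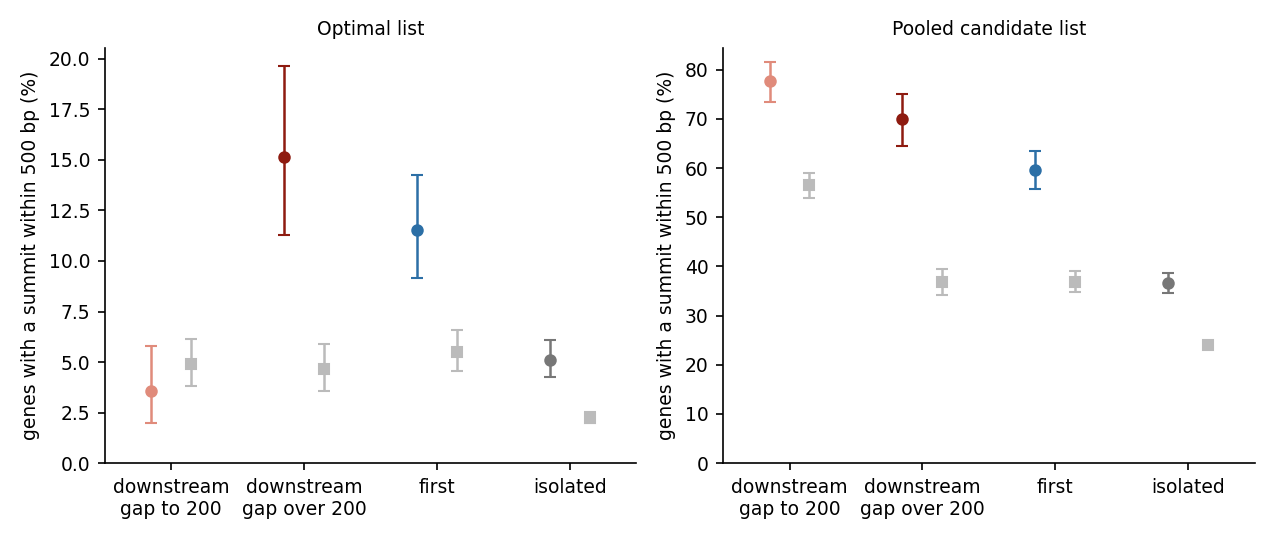
Share of genes with a summit within 500 bp, in percent with exact 95% intervals, for genes with the splice acceptor hexamer just before the 5′ end (coloured circles) and without it (grey squares). In the optimal list (left) members with a gap over 200 bp stand at 15.1% with the acceptor and 4.64% without, while those with a gap up to 200 bp stand at 3.56% and 4.89%; in the pooled list (right) every class is higher with the acceptor.

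The 6-mers were held more often by members with wide gaps than by those with short gaps, among bound and unbound members alike. Since the 6-mers came from an earlier search of these same peaks, their higher share at bound than at unbound members is no independent result. They were sought on both strands from 250 bases before to 50 after the 5′ end, a window in which 5.72% of all coding genes hold GGCGCA and 5.92% hold ACGCGC. Either 6-mer was present at 45 of 109 bound members with a wide gap (41.3%, 31.9 to 51.1) and at 10.9% of unbound ones. At short gaps it was present at 15 of 86 bound members (17.4%, 10.1 to 27.1) and at 5.15% of unbound ones. For gaps of 201 to 300 bp, where the window covers most of the gap, 23 of 37 bound members had one (62.2%, 44.8 to 77.5), against 12.6% of unbound members. For gaps of 0 to 100 bp it was 1 of 35 bound members, against 4.19% of unbound ones. Bound first genes held either 6-mer in 28.4% of cases and bound isolated genes in 33.1%. This window missed the summit of 46 of the 86 short-gap and 38 of the 109 wide-gap bound members. In the 101 bases centred on the summit, either 6-mer was present at 15 of 86 (17.4%, 10.1 to 27.1) and at 37 of 109 (33.9%, 25.2 to 43.6), beside 32.2% of bound first genes and 31.6% of bound isolated genes. Mean GC content of the window was 36.3% at bound and 33.1% at unbound downstream genes, so bound members had more of the bases of which these 6-mers are made. Over all members it was 32.3% at short gaps and 34.3% at wide gaps, and among bound members 36.0% and 36.5%. At short gaps part of the window lies in the upstream gene. The part of base composition in these shares was not tested.

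In the optimal list the share bound was lower further down the run. Genes at place 2 were bound in 165 of 2614 cases (6.31%, 5.41 to 7.31), at place 3 in 24 of 638 (3.76%, 2.43 to 5.55), at place 4 in 5 of 189 (2.65%, 0.864 to 6.07) and further on in 1 of 94 (1.06%, 0.0269 to 5.79). The top list of replicate 3 gave 6.27%, 3.45%, 3.17% and 4.26% over the same places, and that of replicate 4 gave 6.62%, 4.86%, 4.76% and 4.26%, so the later places differed less in the replicates and their intervals overlap. With a gap over 200 bp, 6.83% of genes at place 2 and 6.84% at place 3 were bound. With a shorter gap, 5.81% (4.61 to 7.21) at place 2 and 1.60% (0.589 to 3.45) at place 3 were. In the optimal list the lower share at place 3 was thus found at short gaps. In the pooled list the order was otherwise, with 50.3% at place 2, 59.1% at place 3 and 55.03% at place 4.

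Most runs had no strong peak at any gene. None was bound in 2279 of the 2614 runs, the first gene alone in 146, downstream genes alone in 152 and both in 37. A downstream gene was bound in 20.2% of the runs with a bound first gene and in 6.25% of the others. These were separate peaks, as no second gene shared a summit with its first gene. Restricted to second genes over 1000 bp from the first gene's 5′ end, 26 of 149 behind a bound first gene were bound (17.4%, 11.7 to 24.5), against 118 of 2211 behind an unbound one (5.34%, 4.44 to 6.36). More runs had a bound downstream gene behind an unbound first gene than had both bound, but 2431 of the 2614 first genes were unbound.

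The 20 members with the highest signal, each with its own 5′ end nearest to the summit, are named next. The signal is the authors' and its scale is not stated, so it is compared within 1 list only. Of these 20, 15 had a gap over 200 bp, 16 had the summit in the gap and 4 inside the gene, and 18 were second genes. The gene ahead was itself bound at 4. The top list of replicate 3 held all 20, and that of replicate 4 held 19. A tRNA, snoRNA or snRNA gene lay within 250 bp of the summit at 3 of the 20. Over all bound members it did at 12 of 195, beside 62 of 772 bound genes of all classes. Median signal of bound members was 99.8, near the 99.4 of first genes and below the 115 of isolated genes.

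They are described by known function, an order chosen after their values were seen, and no function was tested for excess. Some act in RNA processing and translation. The strongest of the 20 was cmtr-1, the methyltransferase of the mRNA cap, with a signal of 361.6 (263.2 in replicate 3 and 97.05 in replicate 4), rank 30 and 41 in these lists. Its summit lay at -193 bp in a gap of 332 bp, with a snoRNA gene within 250 bp. eif-3.C, a subunit of translation initiation factor 3, followed sys-1 by 401 bp and had a signal of 224.2 (152.6 and 71.21) at -253 bp. suf-1, whose relative suppressor of forked acts in mRNA 3′ end cleavage, lay 265 bp behind rpl-26 and had 216 (165.3 and 49.73) at -34 bp. thoc-7, of the THO complex of mRNA export, lay 116 bp behind rpl-29 and had 182.3 at 90 bp inside the gene. The first 3 were strong in both replicates. thoc-7 was not, as it stood at rank 108 in replicate 3 (162.4) and rank 2225 in replicate 4 (19.45), the only one of the 20 outside the top peaks of a replicate.

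Others serve protein folding, import and turnover. cul-4, a ubiquitin ligase scaffold, had a signal of 204 (142.3 in replicate 3, 56.96 in replicate 4) at -256 bp in a gap of 468 bp. dnj-9, a J domain protein, had 191.7 (138.9 and 57.76) at -241 bp. bag-1, a regulator of Hsp70 chaperones, followed mei-2, a subunit of the meiotic katanin, which was bound too, and had 190 (131.8 and 55.65) at -152 bp. C34C12.8, a mitochondrial GrpE homolog, had 183.1 (135 and 49.86) at -136 bp. ddp-1, the Tim8 homolog of mitochondrial import, had 212.7 (163.1 and 53.16) at -172 bp. All 5 were among the top peaks of both replicates.

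Further members included tebp-2, which binds double-stranded telomeric DNA in the germline, behind drp-1. Its signal was 202.7 (153.3 and 53.19) at -157 bp, over the copies of GGCGCA shown above. tba-2, an alpha tubulin, had 187 (134.3 and 51.02) at -187 bp behind the proteasome gene pbs-2. eelo-2, an M3 peptidase by its RefSeq name, had 285.2 (194.3 and 80.33) at -238 bp. F26F2.7, a TAPT1 homolog, had 241 (166.5 and 71.45) at -255 bp. These 4 had a gap over 200 bp and the summit in it. W04C9.4, an uncharacterized gene, had 179.8 (108.4 and 72.46) at -262 bp, and Y75B12B.11 323.3 (219.4 and 101.5) at -225 bp with a snoRNA gene beside it.

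The short-gap members among the 20 had the summit at the border of the genes or inside the downstream gene. Y39B6A.43 lay 76 bp behind Y39B6A.42, which was bound too, and had 305.9 (231.8 in replicate 3 and 78.77 in replicate 4) at -4 bp. D2096.7, with an ELYS domain, lay 75 bp behind nap-1, the nucleosome assembly protein, and had 252.7 (205.7 and 52.83) at -11 bp. rpi-2, the XRP2 homolog, had 273.6 (229.1 and 54.23) at 16 bp behind a gap of 135 bp. Y57G11C.5, a serpin domain gene 196 bp behind vti-1, had 345.7 (254.8 and 96.95) at 377 bp, within 250 bp of an snRNA gene. With thoc-7, these were the 5 short-gap members of the 20. srbc-58, a chemoreceptor gene behind a wider gap of 220 bp and the bound co-chaperone gene sti-1, had 177.5 (137.4 and 44.99) at 206 bp inside it.

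**Figure D5:**
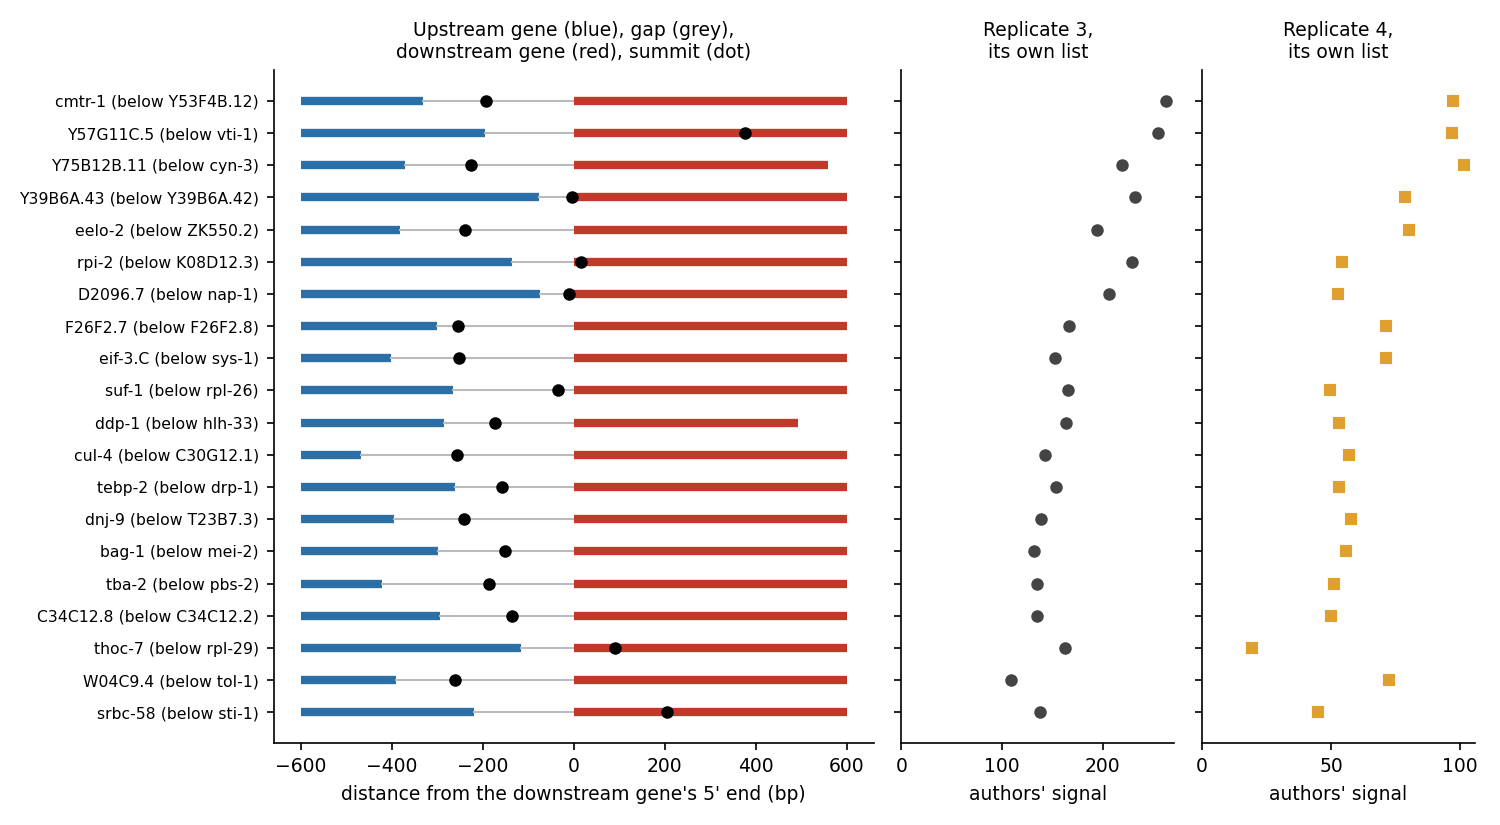
The 20 members with the highest optimal signal. Left, the upstream gene (blue), the gap (grey line), the downstream gene (red, cut at 600 bp) and the summit (dot), in bp from the downstream 5′ end; 16 of 20 summits lie in the gap. Right, the authors' signal at each site in the list of each replicate, whose scales need not match; thoc-7 is the lowest in replicate 4 (19.45).

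In the optimal list a single run had 3 bound genes. In the run pbs-2, tba-2, C47B2.2, fbxa-140 and fbxa-101, the 3 middle genes were bound and the outer ones were not. The signals were 187 at tba-2, 121.2 at C47B2.2, a phosphoribosyltransferase domain gene with the summit 59 bp inside it, and 103.9 at the F-box gene fbxa-140 at -351 bp. tba-2 and fbxa-140 were among the top peaks of both replicates. C47B2.2 was in the top list of replicate 3 (109.4) only, and stood at rank 7097 in replicate 4 (12.67).

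Operons known from the literature gave mixed results. fib-1, the nucleolar methyltransferase fibrillarin, and rps-16, a small-subunit ribosomal protein 110 bp behind it, were both bound, with 101.6 at -64 bp and 128.5 at 62 bp. Each was in the top peaks of both replicates, rps-16 with 104.1 in replicate 3 and 35.14 in replicate 4. mev-1, of mitochondrial complex II, had a summit at -134 bp (94.5) that lay nearer to the 5′ end of another gene, and ced-9, the cell death inhibitor 4 bp behind it, was not. No optimal summit lay near gpd-2 or gpd-3, of glycolysis, near des-2 or deg-3, acetylcholine receptor subunits, or near zim-2, zim-3 or him-8, zinc finger proteins of meiotic chromosome pairing. In the pooled list gpd-3, zim-2, zim-3 and him-8 had a candidate summit, and ced-9, gpd-2, des-2 and deg-3 had none. The annotation gives overlapping spans to mai-1, lin-15B, lin-15A and zim-1, so that these were in no class. gpd-2 and zim-2 start inside mai-1 and zim-1 in the annotation. They were still counted as first genes, since each had a downstream gene behind it. The gene of the factor itself, oef-1, is isolated and had a signal of 220.9 at 10 bp.

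Families defined by gene symbol showed which functions the bound members had. Of 9 ribosomal protein genes among the members, 4 were bound (rps-16, rps-17, rla-1 and rpl-27), beside 30 of 81 such genes over all classes. The top list of replicate 4 held 2 of these 4. Mitochondrial ribosomal proteins had 3 of 27 members bound (mrpl-32, mrpl-50 and mrps-21), beside 6 of 70 over all classes. Translation factors had 2 of 7 (eif-3.C and eef-1B.2), beside 8 of 38, and the respiratory chain had 2 of 13 (cyc-2.1 and cyc-1), beside 6 of 34. RNA polymerase and Mediator had 2 of 26 (rpac-19 and rpb-9), beside 7 of 69. Aminoacyl-tRNA synthetases had 1 of 10 (vars-1), beside 3 of 32, and the proteasome 1 of 8 (rpn-10), beside 4 of 33. The top list of replicate 3 held 0 of these synthetases, and that of replicate 4 held 0 of these proteasome members. Translation factors and RNA polymerase and Mediator each had 1 member in the top list of replicate 3. The respiratory chain had 1 in that of replicate 4. None of the 7 splicing factors and 8 meiosis genes taken by symbol was bound, beside 6 of 37 and 10 of 45 over all classes. These counts allow shares of up to 41.0% and 36.9%. The top list of replicate 3 held 1 of the 8 meiosis genes. The symbols do not take in every gene of a function. Bound members outside them included dsb-2, a double-strand break factor (125.6), and ddx-23, a putative RNA helicase (106.9), both top peaks in both replicates. These families are small, and their shares are descriptions.

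Among genes of oocytes and germ granules, 3 of 9 members were bound, beside 15 of 47 over all classes, and all 3 lay behind wide gaps. egg-4, a pseudophosphatase of the egg-to-embryo transition, had 142.1 (103.2 in replicate 3 and 38.07 in replicate 4) at -328 bp. perm-1, needed for the permeability barrier of the eggshell, had 126.7 (86.12 and 40.26) at -282 bp. oma-1, a zinc finger protein of oocyte maturation, had 106 (68.74 and 35.86) at -265 bp. All 3 were top peaks in both replicates. Of genes with mainly somatic roles, cuticle genes had 1 of 28 (col-85, near a tRNA gene), beside 2 of 194, and chemoreceptors 2 of 173 (srbc-58 and srw-95), beside 7 of 1171. None of 38 nuclear receptor genes was bound, which allows a share of up to 9.25%, beside 2 of 269 over all classes. Of 9 neuronal genes none was bound either, which allows up to 33.6%, beside 4 of 196.

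The X chromosome held almost none. Of 265 members on X, 1 was bound (0.377%, 0.00955 to 2.08), against 194 of 3270 on the autosomes (5.93%, 5.15 to 6.80). Isolated genes showed the same split, 0.281% on X and 3.24% on the autosomes. So did all coding genes, with 9 of 2731 on X (0.33%) and 763 of 17242 on the autosomes (4.4%). The low share on X was thus not particular to members. Among autosomes the share of members bound ran from 2.99% on V to 8.76% on I, with 5.49% on II, 6.02% on III and 7.89% on IV. All coding genes ran from 2.58% on V to 6.53% on I, with 3.91% on II, 6.06% on III and 4.60% on IV. On every autosome the downstream share was above the isolated one, but on III it was level with that of all coding genes. The top lists gave 6.54% of members on III, beside 6.25% of all, in replicate 3, and 5.68%, beside 6.48%, in replicate 4.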

How the data were processed

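The deposited values are peak lists from both replicates. Per the README texts and the labels, the authors made a candidate list for each replicate and a pooled list from both, against 1 control shared by the replicates, and drew the optimal list from them by irreproducible discovery rate. The signal of each peak in the deposited lists is the authors' value. The sources used here do not give the caller, the aligner, their versions or the number of reads, so depth is unknown. The ce11 lists were set on WBcel235, the same assembly, with Ensembl release 115 genes and the RefSeq genome for sequences and product names; all nuclear peaks lay within the chromosome lengths. The ce10 lists were not used here. A member was called bound when a summit lay within 500 bp of its 5′ end. Equal-sized top lists of each replicate were its 1339 strongest peaks. The signal of a site in a replicate is the highest within 200 bp. Shares have exact Clopper-Pearson 95% intervals for counting error, and no test was made. Named are the 20 strongest members whose own 5′ end was nearest, runs with 3 or more bound genes, 6 operons known from the literature and oef-1. Names counted in families of 5 or fewer bound members, and dsb-2 and ddx-23, were added after their values were seen. The count of 6-mers at summits was added after seeing the data. Members, lists and 6-mers were chosen with earlier results of these data known. The result for sperm genes is not reported here. Alternatives varied window, gap, assignment, 5′ end, threshold, list, small RNA genes and replicate. The code was checked on toy genes of known class. Python 3.11.15, numpy 2.4.6, pandas 2.3.3, scipy 1.17.1 and matplotlib 3.10.9 were used.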

Additional observations from a re-analysis of the deposited data

How the results depend on the processing

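Under all 13 alternatives the downstream share stayed above the isolated share, but it lay below the first-gene share in 8 and above it in 5. Values are given in the order downstream, first and isolated. A window of 200 bp gave 3.59%, 2.41% and 1.30%, and 1000 bp gave 6.65%, 9.14% and 4.07%. With downstream genes limited to gaps of 0 to 200 bp they were 4.59%, 10.3% and 3.08%, since wide-gap genes then start runs. Counting a summit only for the nearest 5′ end gave 5.49%, 4.63% and 2.10%. From the start of the coding sequence they were 5.37%, 6.77% and 2.66%. Leaving out summits near small RNA genes gave 5.18%, 6.62% and 2.48%. Genes with no other 5′ end within 1000 bp gave 5.40%, 3.35% and 1.33%, and the stronger part of the optimal list 2.63%, 3.25% and 1.64%. The pooled list gave 52.6%, 42.6% and 26.3%. Autosomes alone, an alternative added after seeing the data, gave 5.93%, 7.55% and 3.24%. Leaving out a replicate gave 5.55% to 6.14%, 6.12% to 6.58% and 2.74% to 2.85%. Allowing an opposite-strand gene in the gap moved no share by more than the spread between replicates.

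The median summit position of bound members, -79 bp, was -142.5 bp from the start of the coding sequence, -83.5 bp by nearest assignment, and -90 to -68 bp without a replicate. No paired analysis was possible because there was 1 group. Depth limits are unknown, as no read counts were used.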
